A study of Mus musculus with 6 samples.

Results

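Rab GTPases are small GTP-binding proteins that give each membrane of the cell its identity and steer the vesicles that move between them. The Rab genes described here are all genes whose only symbol in the platform annotation is Rab followed by a number, with or without a letter. The rule found 59 of the 18193 genes with a value, carried by 132 probe sets, with 1 to 7 probe sets per gene. Expression was measured on arrays in mouse embryonic stem cells (mESCs) that carry Dicer flox/flox alleles. The Dcr WT group (n = 3 arrays) was transfected with GFP alone and the Dcr KO group (n = 3 arrays) with GFP and Cre recombinase, and RNA was taken 5 days after transfection in both. Both groups therefore share the floxed alleles, the transfection and GFP. Neither group received Cre without floxed alleles, so that an effect of Cre and the effect of the deletion cannot be told apart. The Dcr KO samples are polyclonal populations and not single clones, and the methods describe the arrays as biological triplicates. In such bulk RNA, fewer cells that express a gene and less of its RNA per cell cannot be told apart.

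A Rab protein cycles between a GDP-bound form, held in the cytosol by a chaperone, and a GTP-bound form on a membrane. Exchange factors load it with GTP, GTPase-activating proteins (GAPs) return it to the GDP form, and the active form recruits effectors such as tethers, motors and sorting complexes. A lipid tail added by the prenylation machinery anchors it. Different members mark the endoplasmic reticulum (ER) and Golgi, the early, recycling and late endosomes, lysosomes and secretory vesicles.

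Dicer cuts miRNA precursors, and the mir-290 cluster is a prominent source of miRNAs in mESCs. The study compiled a candidate list of predicted target genes of this family, kept where they were up-regulated in knockout cells, partly on these same arrays. On that list are 5 Rab genes (Rab5c, Rab21, Rab22a, Rab29 and Rab33b). The mature sequences of the family are shown because that list rests on a hexamer in their seed region. Bases 2 to 8 are printed in capitals. They were read from RefSeq, 5 of the 6 searched names were found, and all lie on the plus strand of chromosome 7 of GRCm38.p6, from chr7:3218674-3218697 for the first to chr7:3220815-3220837 for the last.
mmu-miR-290a-3p: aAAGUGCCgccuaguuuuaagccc
mmu-miR-291a-3p: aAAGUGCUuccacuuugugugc
mmu-miR-291b-3p: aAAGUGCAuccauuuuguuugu
mmu-miR-294-3p: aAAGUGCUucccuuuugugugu
mmu-miR-295-3p: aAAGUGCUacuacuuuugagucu
All 5 share the hexamer AAGUGC at bases 2 to 7, and 3 of them (miR-291a-3p, miR-294-3p and miR-295-3p) also share base 8. No target site in a Rab transcript was searched here.

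The targeted gene, Dicer1, had log2 levels of 7.78, 7.89 and 7.16 on the Dcr WT arrays and 6.33, 6.59 and 5.92 on the Dcr KO arrays, a difference of -1.33 ± 0.23 (SE, limma adjusted p = 0.0134). Its 2 probe sets were unlike in size, from 8.21 to 6.37 and from 7.01 to 6.19, with no overlap in either. The paper describes the cells at this time as predominantly Dicer null. Over the tested genes, arrays correlated at 0.988 to 0.992 within Dcr WT and at 0.987 to 0.997 within Dcr KO. Between groups, r was 0.962 to 0.972 for Dcr KO replicate 3 and 0.979 to 0.984 for the other Dcr KO arrays. Of the pluripotent stem cell markers all 8 were tested and 0 passed in limma, and 5 had an unadjusted p under 0.05. Of these, Pou5f1, Sox2 and Zfp42 were higher (0.38, 0.33 and 0.29) and Tdgf1 and Utf1 lower (-0.34 and -0.25). The share of all tested genes at an unadjusted p under 0.05 was not counted, so that these 5 show no excess. The log2 of the summed linear levels of all 8 was 15.41 to 15.56 in Dcr WT and 15.58 to 15.61 in Dcr KO, with no overlap. Dppa5a, the brightest (14.08 and 14.18), weighs most in that sum, so that it does not show a rise of each marker. Of 7 neural markers, 2 were tested and 1 passed: Tubb3, a neuronal tubulin, rose from 8.28 to 9.01 (adjusted p = 0.01), while Nes, a neural progenitor filament, was at 4.09 and 4.01 and Pax6, Sox1, Neurog2, Map2 and Dcx lay under 4. The log2 of the summed linear neural levels was 8.36 to 8.58 in Dcr WT and 9.04 to 9.25 in Dcr KO. Most of this sum is Tubb3 (8.16 to 8.43 and 8.91 to 9.13), so that it repeats the Tubb3 result. Of the tested markers of fibroblasts (2), primitive endoderm (1) and trophectoderm (4), 0 passed in limma, with 0, 0 and 1 at an unadjusted p under 0.05. The part of the neural and pluripotent markers in the Rab results was not tested.

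Of the 59 Rab genes, 35 had a mean over the 6 arrays of at least 4 on the log2 scale (16 on the linear scale) and were tested, and 24 lay below it, at 1.58 to 3.99. Rab33b, Rab32, Rab22a and Rab11a rose in Dcr KO and Rab25, Rab13 and Rab24 fell, while 28 did not pass. A gene passed at a Benjamini-Hochberg adjusted p under 0.05 in limma over all 8782 tested genes. The 4 that rose are 11.4% of the tested Rab genes, beside 6.91% of all tested genes, and the 3 that fell are 8.57%, beside 6.42%. In either direction 20% of the tested Rab genes passed, beside 13.3% of all tested genes. Without adjustment, 6 Rab genes were higher and 6 lower at p under 0.05. The share of all tested genes at that level was not counted, so these counts show no excess. The groups did not overlap for 6 Rab genes that were higher (17.1%, beside 17.7% of all genes) and 8 that were lower (22.9%, beside 21.2%). The median difference of the tested Rab genes was 0.07, beside -0.02 over all tested genes, and it was -0.04 with the brightest probe set of each gene and -0.05 without Dcr WT replicate 2. The members just above the minimum were Rab38 (mean 4.08), Rab2b (4.41) and Rab32 (4.78), and those just below were Rab6b (3.99), Rab8a (3.94) and Rab39b (3.89).

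**Figure D1:**
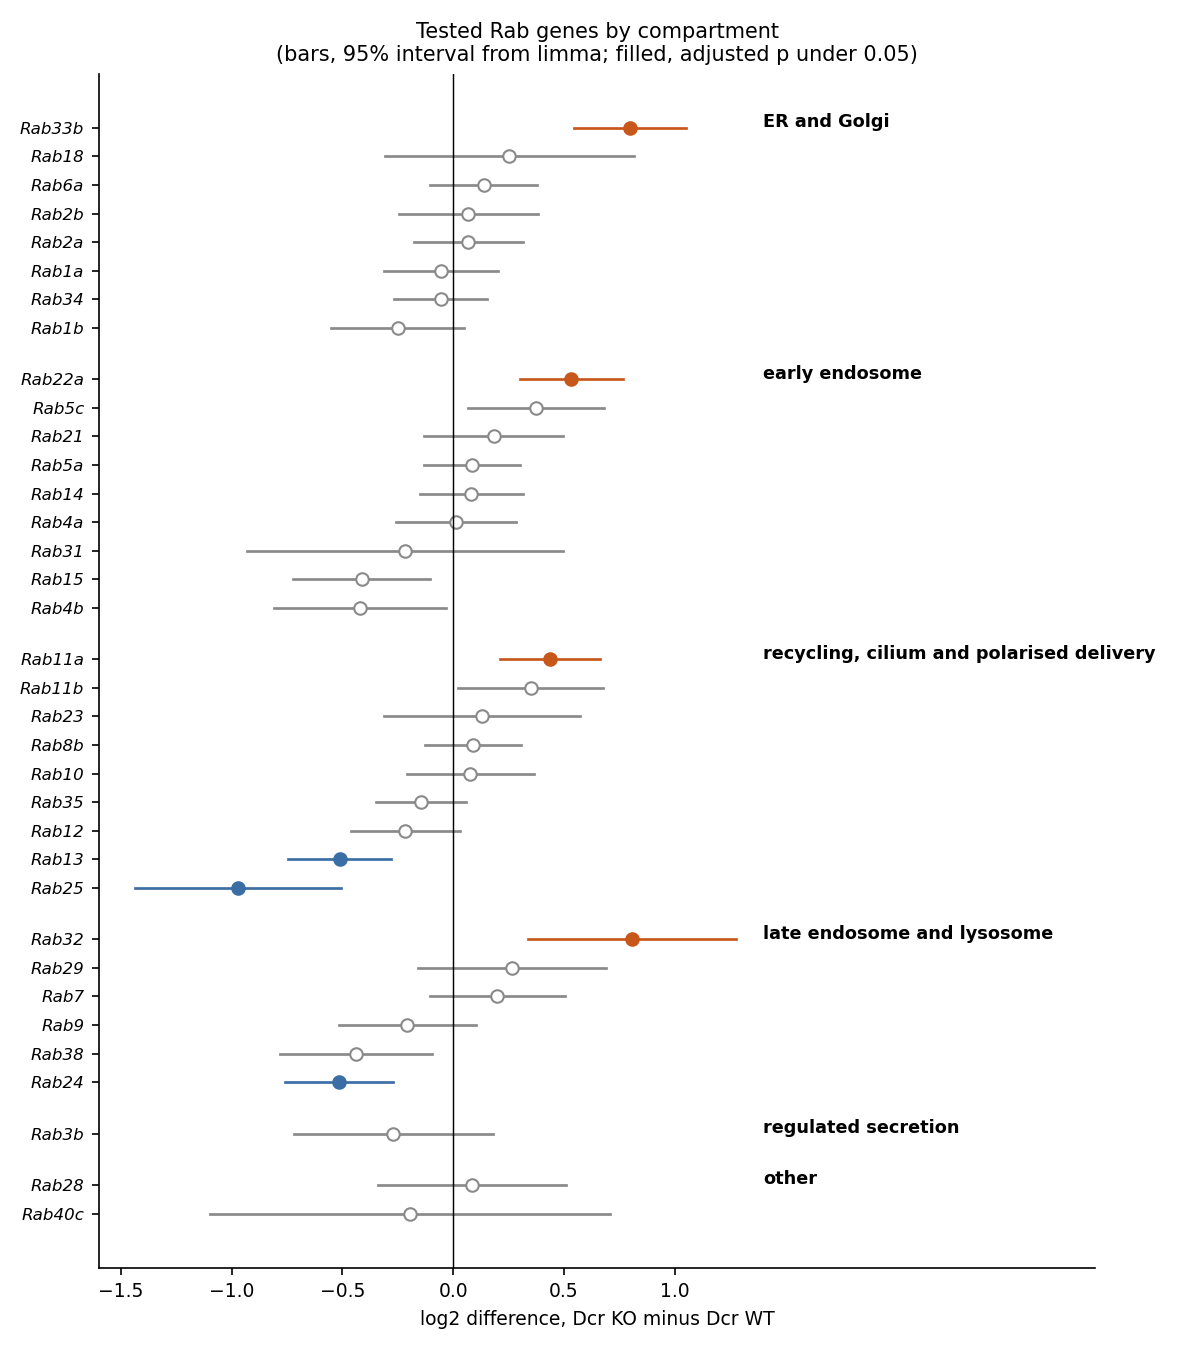
Difference in log2 expression, Dcr KO minus Dcr WT, of the 35 tested Rab genes, arranged by compartment, with the 95% interval from limma (n = 3 arrays per group) and filled points for an adjusted p under 0.05. The filled points run from -0.97 for Rab25 to 0.81 for Rab32, and every compartment with a filled point also holds genes that did not pass.

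By compartment, tests were possible for 8 of 14 ER and Golgi genes, 9 of 12 of the early endosome, 9 of 10 of recycling, cilium and polarised delivery, 6 of 8 of the late endosome and lysosome, 1 of 8 of regulated secretion and 2 of 7 others. The median differences of the first 4 groups were 0.07, 0.08, 0.08 and -0.0033.

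Among the ER and Golgi members, 1 of 8 tested genes rose and 7 did not pass. Rab33b, a Golgi Rab that binds the autophagy protein Atg16l1, stood at 7.07, 7.21 and 7.05 on the Dcr WT arrays and at 7.77, 8.03 and 7.93 on the Dcr KO arrays. The lowest Dcr KO array lay above the highest Dcr WT array. The difference was 0.80 ± 0.11 (SE), or 1.74-fold (adjusted p = 0.0063). It passed in all 6 fits that left out an array, with adjusted p between 0.0144 and 0.0341, and under all 17 settings (0.00534 to 0.0341). Rab33b is on the study's candidate list, so that its direction here is not independent of that list.

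The early endosome held 1 gene that rose among 9 tested. Rab22a, which acts in sorting and recycling from early endosomes, stood at 5.43, 5.42 and 5.28 in Dcr WT and at 5.92, 5.82 and 5.99 in Dcr KO, with no overlap. Its difference was 0.53 ± 0.10 (SE), or 1.45-fold (adjusted p = 0.0174), and it too is on the study's list. The call was lost without Dcr WT replicate 3 (adjusted p = 0.0556) and without Dcr KO replicate 2 (0.0521).

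Rab11a, the Rab of the recycling endosome and of vesicles bound for the primary cilium, stood at 9.65, 9.62 and 9.67 in Dcr WT and at 10.02, 10.03 and 10.20 in Dcr KO. The groups did not overlap and the Dcr WT arrays lay within a narrow range. The difference was 0.44 ± 0.10 (SE), or 1.35-fold (adjusted p = 0.0287). The call was lost when any single array was left out: adjusted p was 0.0637, 0.062 and 0.0683 without Dcr WT replicates 1, 2 and 3, and 0.0568, 0.0826 and 0.0687 without Dcr KO replicates 1, 2 and 3. Rab11a is not on the study's list, and its 2 probe sets gave different values.

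Rab32, a Rab of lysosome-related organelles and of mitochondria, stood at 4.35, 4.19 and 4.59 in Dcr WT and at 5.13, 4.82 and 5.60 in Dcr KO. The groups did not overlap, and all Dcr WT values lay near the minimum of 4. The difference was 0.81 ± 0.20 (SE), or 1.75-fold (adjusted p = 0.039). It passed without Dcr KO replicate 2 (0.0419) but not without Dcr WT replicates 1, 2 and 3 (0.0906, 0.0986 and 0.0767) or Dcr KO replicates 1 and 3 (0.0741 and 0.0677). Rab32 is not on the study's list. Its 1 probe set did not pass in limma where probe sets were tested singly (adjusted p = 0.0635).

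**Figure D2:**
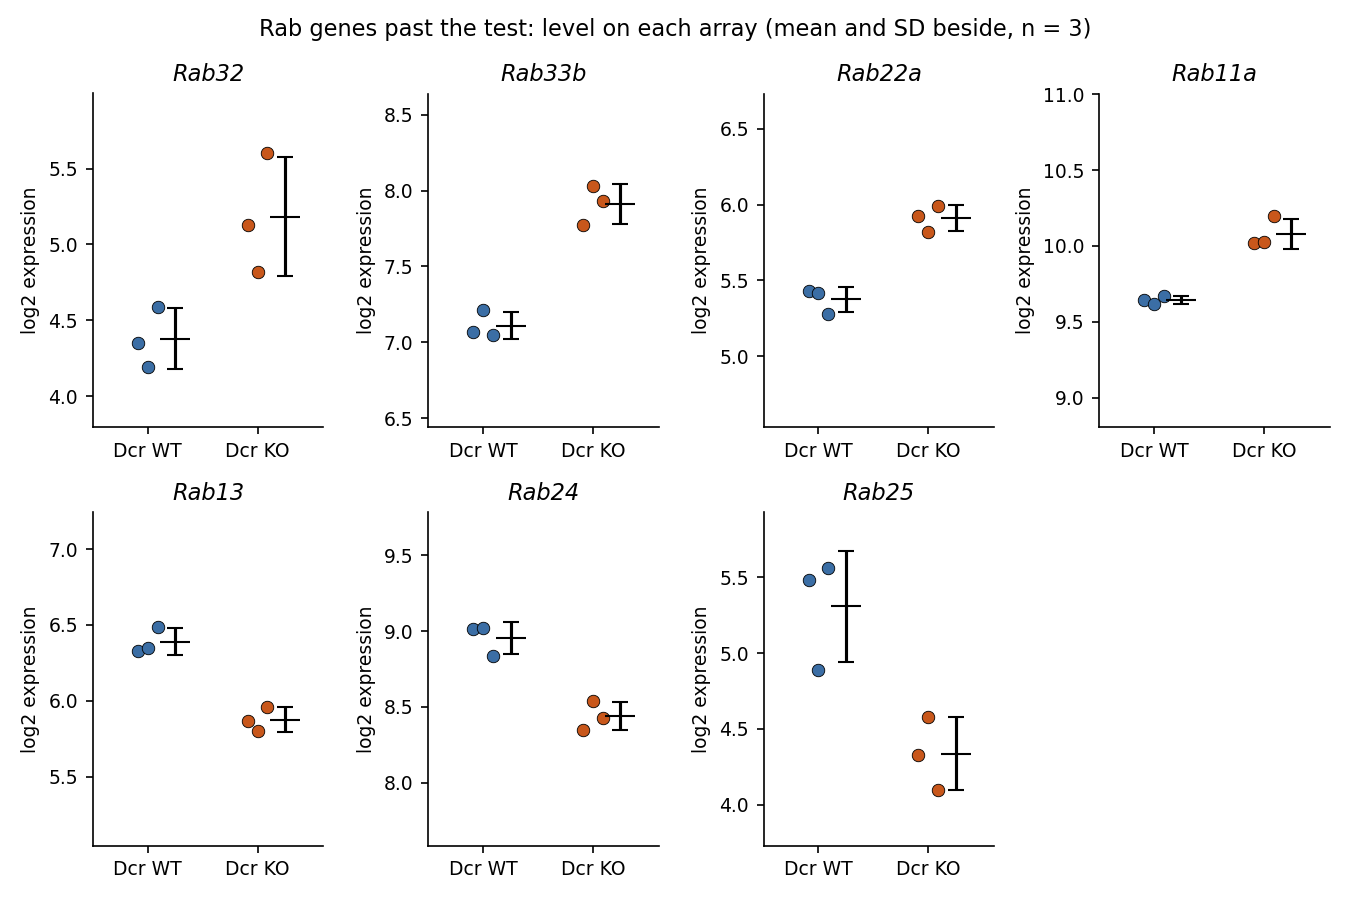
Log2 expression of the 7 Rab genes that passed, on each Dcr WT and Dcr KO array (points), with the mean and SD beside them (n = 3 arrays per group). In each panel the Dcr WT and Dcr KO points do not overlap, and the vertical axis is placed at a different level for each gene.

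The largest fall was that of Rab25, a relative of Rab11 best known from apical recycling in epithelial cells. Its levels were 5.48, 4.89 and 5.56 in Dcr WT and 4.33, 4.58 and 4.10 in Dcr KO. The groups did not overlap, and the Dcr KO arrays lay close to the minimum. The difference was -0.97 ± 0.20 (SE, adjusted p = 0.0225), which left 50.9% of the Dcr WT level. It was not past the threshold without Dcr WT replicate 1 (0.0635) or 3 (0.0815), or without Dcr KO replicate 1 (0.0509) or 3 (0.0562).

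Rab13, which takes part in the delivery of tight junction proteins, stood at 6.33, 6.35 and 6.49 in Dcr WT and at 5.87, 5.80 and 5.96 in Dcr KO, again with no overlap. The difference was -0.51 ± 0.10 (SE, adjusted p = 0.0193), leaving 70.1% of the Dcr WT level. The call was lost when Dcr WT replicate 3 was left out (0.0583), and likewise for Dcr KO replicates 1 (0.0519) and 2 (0.0809). Rab25 and Rab13 were both placed with recycling and polarised delivery, where Rab11a rose: of 9 tested genes there, 1 rose and 2 fell.

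Rab24, an atypical Rab with a role in the clearance of autophagic compartments, stood at 9.02, 9.02 and 8.84 in Dcr WT and at 8.35, 8.54 and 8.43 in Dcr KO. All Dcr KO arrays lay below all Dcr WT arrays. The difference was -0.52 ± 0.11 (SE, adjusted p = 0.0217), leaving 69.9% of the Dcr WT level. Without Dcr WT replicates 1 and 2 the adjusted p was 0.0574 and 0.0533, and without Dcr KO replicates 1 and 2 it was 0.0618 and 0.0595. Rab24 also missed the threshold when probe sets that may bind several transcripts were left out (-0.33, adjusted p = 0.0997). Rab24 and Rab32 are the 1 lower and 1 higher gene among 6 tested late endosome and lysosome members.

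Several other endosomal members were tested and did not pass. Rab5c, of the Rab5 group that drives the fusion of early endosomes, stood at 8.01, 7.83 and 8.24 in Dcr WT and at 8.26, 8.51 and 8.43 in Dcr KO (0.37 ± 0.13 SE, adjusted p = 0.0992). Its groups did not overlap, and the nearest arrays stood at 8.24 and 8.26. On the other side, Rab38, a melanosome Rab and relative of Rab32, differed by -0.44 (adjusted p = 0.0871), Rab4b, of fast recycling, by -0.42 (0.133), and Rab15, of early and recycling endosomes, by -0.41 (0.0785). The groups did not overlap in any of these 3. Rab11b and Rab29, a Golgi and lysosome Rab that recruits the kinase LRRK2, differed by 0.35 (0.135) and 0.27 (0.347), with overlapping groups. Rab21, which carries integrins through endosomes, differed by 0.18 (0.382). All 5 members on the study's list lay above 0 and 2 of them passed. The list kept genes for a rise in knockout cells, partly on these same arrays, so that their direction is not independent evidence.

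None of the 5 members with a mean over probe sets and arrays of at least 10 passed. Members such as Rab1a, Rab2a, Rab14 and Rab11a have a probe set above 10 but a lower mean, and of these Rab11a passed. Rab5a, of early endosomes, was at 11.59 in Dcr WT and 11.68 in Dcr KO (difference 0.09, adjusted p = 0.554). Rab6a, of transport at the Golgi, was at 10.71 and 10.85 (0.14, 0.39), and Rab9, of transport from late endosomes to the Golgi, at 10.69 and 10.48 (-0.21, 0.319). Rab7, which brings late endosomes to lysosomes, was at 10.37 and 10.57 (0.20, 0.33). Rab18, of the ER and lipid droplets, was at 10.01 and 10.26 (0.25, 0.504), with a 95% interval from -0.31 to 0.82, and Dcr WT replicate 2 lay at 9.42 beside 10.39 and 10.22. A missed threshold does not show equal levels. Rab35, an endocytic recycling Rab, varied little within each group, with 9.48, 9.45 and 9.46 against 9.33, 9.32 and 9.30 (-0.15, adjusted p = 0.287), whose groups did not overlap.

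Regulated secretion, the compartment of the Rab3 and Rab27 groups that dock secretory granules and synaptic vesicles, had 1 tested gene among 8 when probe sets were averaged and 4 when the brightest probe set stood for each gene. The gene tested by its mean was Rab3b (5.83 in Dcr WT and 5.56 in Dcr KO, adjusted p = 0.37), and it was lower without Dcr KO replicate 1 (-0.51, 0.0406). The means of the other 7 lay under 4, but Rab3a, Rab3d and Rab27a each had a probe set above it. For Rab27a, of secretory lysosomes, that probe set stood at 6.86, 7.34 and 7.10 in Dcr WT and at 7.95, 7.59 and 7.52 in Dcr KO (0.59, adjusted p = 0.052 in the fit of brightest probe sets). The groups did not overlap and the test was not passed. For Rab3d, of granule secretion, the brightest probe set went from 4.41 to 3.82 and passed there as lower (-0.58, adjusted p = 0.0339), and for Rab3a, of synaptic vesicles, it was at 5.05 and 5.00 (-0.05, 0.762). Over all compartments, 17 of the 24 untested genes had no probe set at or above 4 and 7 had at least 1 (Rab3a, Rab3d, Rab6b, Rab8a, Rab27a, Rab30 and Rab39b). Rab33a, the relative of Rab33b, was the untested member with the largest difference: 3.69, 3.47 and 4.12 in Dcr WT against 2.92, 3.16 and 2.36 in Dcr KO. Those values do not overlap, 5 of the 6 lie under the minimum, and Rab33a was tested, and passed, only in the fit without a minimum (adjusted p = 0.0458).

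Close relatives that share a number were compared by the difference of their differences over the 16 pairs with at least 1 tested gene. With 3 arrays against 3 the smallest p of the exact two-sided permutation test is 0.1 (adjusted 0.32), so that no pair could pass. Rab11a and Rab11b differed from each other by 0.09 ± 0.21 (SE, exact permutation p = 0.8). Rab4a and Rab4b had differences of 0.01 and -0.42 (0.43 ± 0.14 SE, exact permutation p = 0.1), and the ratios of the pair on the arrays did not overlap. The same held for Rab6a over Rab6b, Rab33a over Rab33b, Rab5b over Rab5c and Rab9 over Rab9b, 5 of the 16 pairs in all, though in the last 4 of these 1 gene lies under the minimum. How often the ratios of other gene pairs do not overlap was not counted, so the 5 pairs do not show that relatives diverge. Relatives with other numbers stood on opposite sides of 0: Rab11a rose while Rab25 fell, and Rab32 rose while Rab38 was at -0.44. The difference between them was not tested.

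Where a gene has several probe sets, their differences were not always alike. Of 22 Rab genes with more than 1 probe set at or above 4, 6 had differences that spanned more than 0.5 (Rab2b, Rab6b, Rab11a, Rab23, Rab28 and Rab31). Of the 76 Rab probe sets tested singly, 3 rose and 3 fell, beside 5.24% and 3.47% of 16571 probe sets. Those that rose belong to Rab11a, Rab22a and Rab33b and those that fell to Rab13, Rab24 and Rab25, so that Rab32 is not among them. The rise of Rab11a came from its dimmer probe set, at 8.42, 8.37 and 8.36 in Dcr WT and 9.06, 9.16 and 9.34 in Dcr KO (0.80, adjusted p = 0.0133). Its brighter probe set went from 10.90 to 10.97 (0.07, adjusted p = 0.688). Rab22a was higher in all 3 of its bright probe sets, by 0.39, 0.52 and 0.83 (adjusted p = 0.115, 0.185 and 0.0363). Rab24 was lower in both, by -0.33 and -0.70 (0.137 and 0.0369).

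The disagreement was largest in Rab6b, the neuronal form of Rab6, where 1 probe set went from 5.80 to 4.65 (-1.15, adjusted p = 0.0548) and another from 4.56 to 4.60. Rab31, of transport between the Golgi and endosomes, had 7.60 and 7.09 on its brighter probe set (-0.51, 0.0576) and 4.04 and 4.12 on the other, which varied with an SD of 0.88 and 0.93. Rab23, a Rab of the primary cilium, had differences of 0.13, 0.62 and -0.36, Rab28 had -0.22 and 0.39, and Rab2b, of the ER and Golgi, had -0.32, 0.30 and 0.14. None of these passed on a single probe set. When the brightest probe set stood for each gene, 42 Rab genes were tested: Rab33b, Rab32 and Rab11b (0.45, adjusted p = 0.0332) rose, beside 7.71% of genes, and Rab13, Rab25, Rab31 (0.0357), Rab3d (0.0339) and Rab6b (0.0318) fell, beside 8.02%. Rab11a (0.666), Rab22a (0.0804) and Rab24 (0.102) did not pass there.

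**Figure D3:**
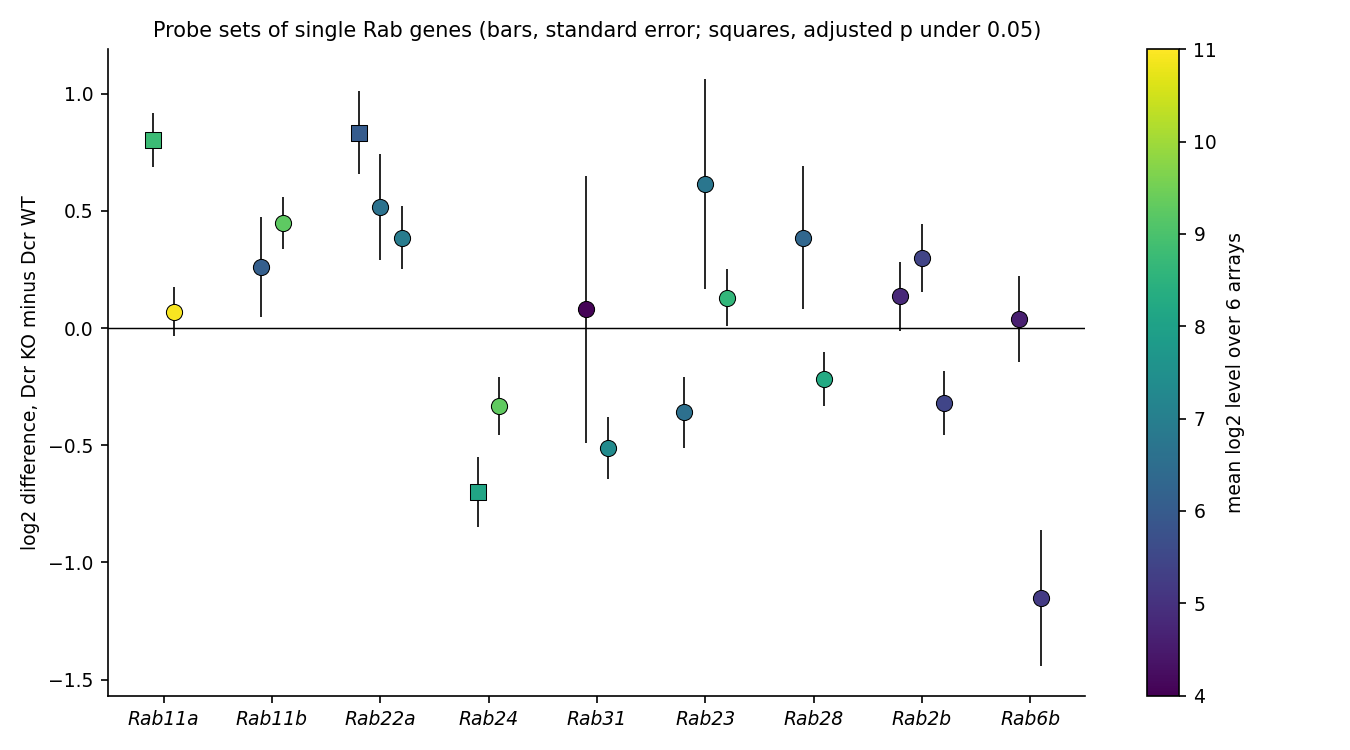
Difference in log2 expression, Dcr KO minus Dcr WT, of single probe sets of Rab genes, with bars of 1 standard error, squares for an adjusted p under 0.05 and colour for the mean log2 level over the arrays (n = 3 per group). The probe sets of Rab11a stand at 0.07 and 0.80, and those of Rab6b, Rab23, Rab28 and Rab2b lie on both sides of 0.

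**Figure D4:**
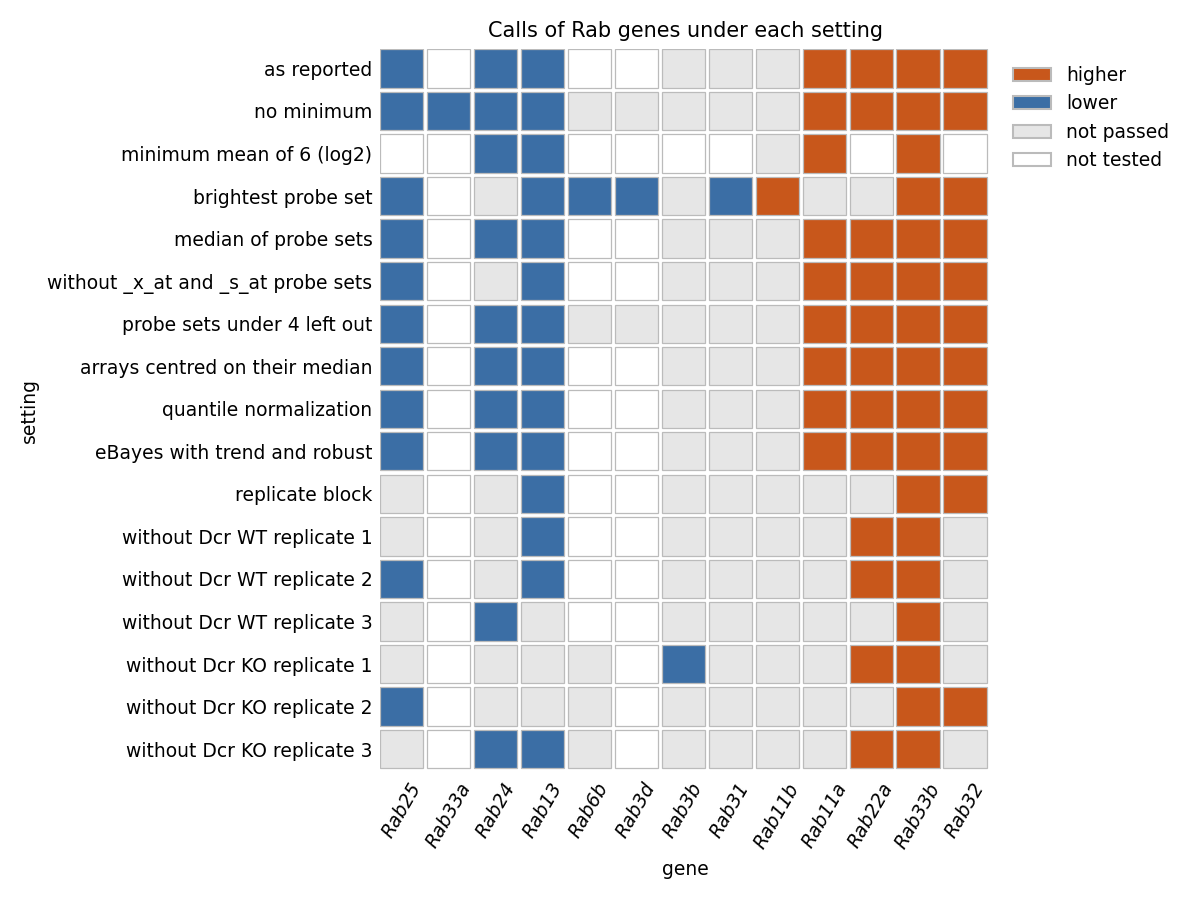
Call of each Rab gene (columns) under each processing setting (rows), coloured as higher, lower, not passed or not tested. Rab33b was called higher in all 17 rows, Rab11a in none of the rows that leave out 1 array, and the row for the brightest probe set adds Rab11b, Rab31, Rab3d and Rab6b.

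The genes that run the Rab cycle were counted over a list of 149 genes, of which 140 had a value and 98 were tested. In Dcr KO 7 rose (7.14%, beside 6.91% of all genes) and 0 fell in limma (beside 6.42%), and 91 did not pass. Without adjustment, p was under 0.05 for 19 that were higher and 8 that were lower. The matching shares of all tested genes were not counted, so this split is not read as a trend. All 7 that rose are among the 15 tested genes that are on the study's candidate list, so that their direction is not independent evidence. The count that fell was not stable: it was 6 with the brightest probe set and 5 when probe sets under 4 were left out. The count that rose was 4, 4 and 1 without Dcr WT replicates 1, 2 and 3, and 4, 1 and 3 without Dcr KO replicates 1, 2 and 3. These were in part other genes than the 7. Tbc1d9 passed in each of these fits except that without Dcr WT replicate 3, where only Tbc1d8b passed. Among these fits, Eea1 passed only without Dcr WT replicate 1, and Dennd2c only without Dcr WT replicate 2. Exoc5 and Tbc1d23 passed only without Dcr KO replicate 1, and Golga2 and Tbc1d12 in none of these fits.

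Of 26 tested genes listed as GAPs, 3 rose, and whether each acts as a GAP was not tested. Tbc1d9, of the TBC domain family, went from 4.66 to 5.51 (0.85, adjusted p = 0.0165). Tbc1d23, which links endosome-derived vesicles to the Golgi, went from 5.99 to 6.57 (0.58, 0.0369), and Tbc1d12 from 4.74 to 5.09 (0.35, 0.0456). The largest difference on the whole cycle list was that of Tbc1d8b, from 3.18 to 4.70 (1.52), with no overlap. Its mean of 3.94 lay just under the minimum, so that it was not tested. It passed as higher with no minimum, with the brightest probe set and when probe sets under 4 were left out. Tbc1d8b is on the study's list. Of 24 exchange factors only Dennd2c, of the DENN domain family, rose, from 8.54 to 9.06 (0.52, adjusted p = 0.03).

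Effectors gave 3 of 41. Eea1, the tether that Rab5 recruits to early endosomes, stood at 7.03, 6.54 and 6.70 in Dcr WT and at 7.12, 7.49 and 7.38 in Dcr KO (0.57, adjusted p = 0.0498), a p next to the threshold. Golga2, the cis-Golgi tether known as GM130, went from 7.04 to 7.58 (0.55, 0.0345), and Exoc5, a subunit of the exocyst that tethers secretory vesicles to the plasma membrane, from 5.94 to 6.40 (0.46, 0.0318). Of the 7 tested prenylation and recycling chaperones 0 passed in limma (1 higher and 1 lower without adjustment). Gdi2, the GDP dissociation inhibitor that extracts Rabs from membranes, was at 12.71 and 12.82 (0.11, adjusted p = 0.459).

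**Figure D5:**
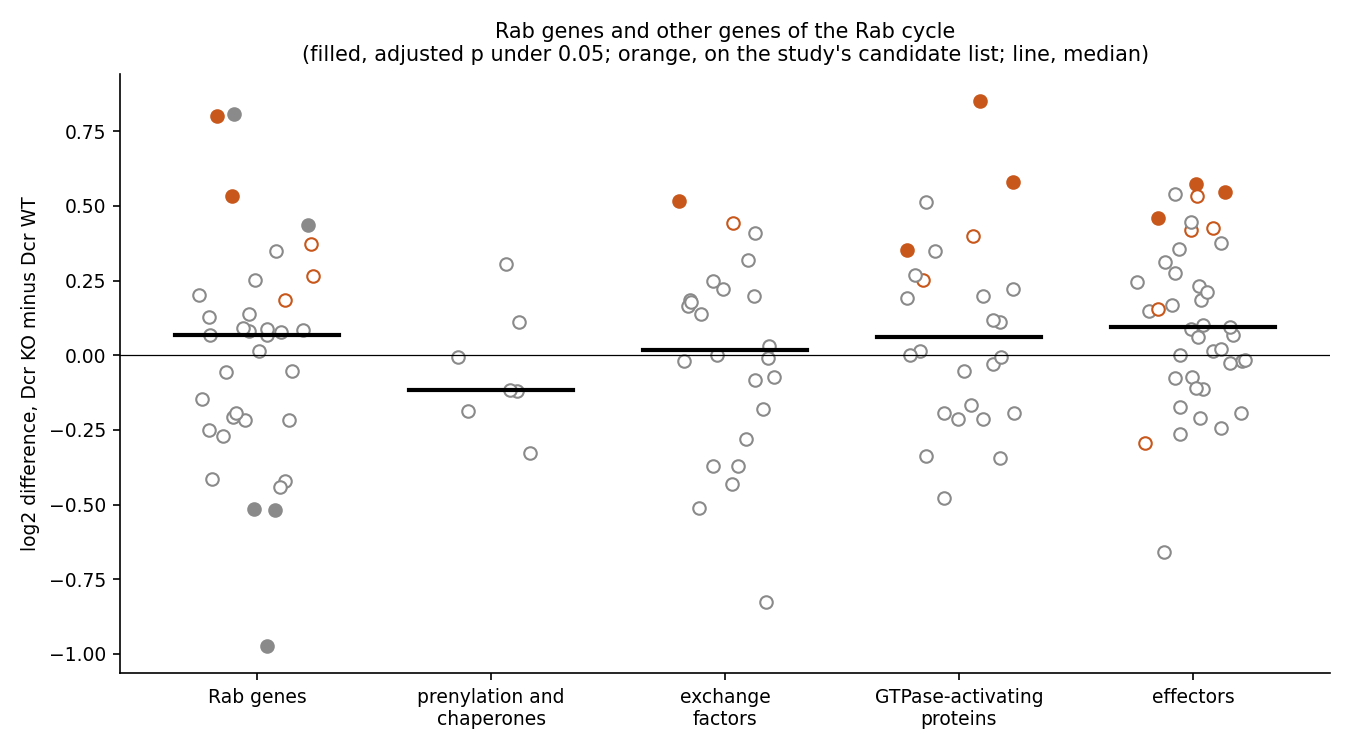
Difference in log2 expression, Dcr KO minus Dcr WT, of tested Rab genes and of 4 classes of Rab cycle genes (1 point per gene, filled for an adjusted p under 0.05, orange for the study's candidate list, line at the median). The 7 filled cycle genes all lie above 0 and all are orange, whereas the filled Rab genes lie on both sides, from -0.97 to 0.81.

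The promoters of the Rab genes, 300 bases each from RefSeq (GRCm38.p6), were described by base composition, averaged where a gene has several. A promoter was found for 31 of the 35 tested Rab genes, with a median GC content of 63.33% (45.33% to 75.33%) and a median of 25 CG dinucleotides, beside 61.67% and 22 over 7139 of the 8782 tested genes. Of the genes that passed, Rab22a, Rab33b and Rab24 had 27, 28 and 32 CG dinucleotides, and Rab25, Rab32, Rab11a and Rab13 had 9, 10, 16 and 18. The first 3 hold 2 genes that rose and 1 that fell, and the others hold 2 of each.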

How the data were processed

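The values the authors deposited are on the log2 scale, for 45037 probe sets on 6 Affymetrix arrays, and were computed, per the labels' processing notes, with GCRMA 2.20.0 in R 2.11.1. A supplementary legend states a joint normalization with arrays of long-term Dicer deletion, and it is not stated whether the deposited values come from it. Signal depends on the probe set, so that levels of different genes are not ranked as abundance. Names came from the platform annotation (34945 probe sets with 1 symbol, 932 with several, 9160 with none, the last 2 kinds left out). A gene's value is the mean log2 of its probe sets. Groups were compared with limma 3.58.1 in R 4.3.3 on genes with a mean of at least 4, with Benjamini-Hochberg adjustment. The test was checked on simulated data. Members, compartments and lists were chosen with earlier results of these data known. Named were genes past the test, the 5 with the highest level, the 3 largest misses each way, members on the study's list, those whose probe sets differ and close relatives of genes that passed; others were chosen after their values were seen. The number of arrays limits the precision. Alternatives were the minimum, the probe set summary, array scaling, the variance prior, the replicate block and leaving out each array.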

Additional observations from a re-analysis of the deposited data

How the results depend on the processing

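The count of Rab genes that rose (4) was 2 with a minimum of 6, 2 with the replicate block, and 1 to 2 when 1 array was left out. The count that fell (3) was 5 with the brightest probe set, 1 with the replicate block and 1 to 2 when 1 array was left out. Without Dcr KO replicate 1 the 1 gene that fell was Rab3b, and Rab25, Rab13 and Rab24 did not pass. For Rab cycle genes, the count that rose (7) was 4 with the median of probe sets, 1 with the replicate block and 1 to 4 when 1 array was left out. The genes behind the counts without 1 array were in part other genes than these 7. The count that fell (0) was 1 with no minimum, without probe sets of shared transcripts, with arrays centred and with quantile normalization, 6 with the brightest probe set, 5 when probe sets under 4 were left out (chosen after seeing the data), and 0 to 1 when 1 array was left out. When 1 array was left out, Rab18 ranged from -0.043 to 0.44, Rab23 from -0.048 to 0.28, Rab28 from -0.11 to 0.27 and Rab2b from -0.068 to 0.16, each below 0 without Dcr WT replicate 2. With the brightest probe set Rab28 was at -0.22 and Rab2b at -0.32. The 23 tested Rab genes named by the rules given above were counted once per setting. Of their values 321 were unchanged in direction and call and 32 no longer passed. A further 2 newly passed (Rab11b and Rab31 with the brightest probe set), and the 6 below 0 just described reversed. Rab3b lies outside those rules and newly passed as lower without Dcr KO replicate 1 (-0.51, limma adjusted p = 0.0406). The 7 Rab genes that passed kept their direction in each setting that gave a value. Over all genes 1171 passed, 597 with the replicate block and 357 to 783 when 1 array was left out. Same-numbered arrays deviated with r of -0.22, -0.02 and 0.03, so that the numbers were not taken to pair the arrays. With the replicate block Rab33b, Rab32 and Rab13 passed, and the adjusted p was 0.0693 for Rab11a, 0.0553 for Rab22a, 0.0556 for Rab24 and 0.0599 for Rab25. Fewer arrays leave fewer degrees of freedom; the cause of the other shifts was not tested.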
